A study of Homo sapiens with 6 samples.

Results

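The genes described here are the human transcription factors of the SOX, PAX, POU, ZIC, IRX, OTX and EMX families. They were chosen by symbol, as protein-coding entries of the deposited count table, with SOX2, SOX14 and POU5F1 left out. This gave 55 members of 61853 entries. Total RNA was sequenced from H9, a line of human embryonic stem cells, in 3 libraries of day 30 and 3 of day 0 of differentiation. Day 30 cells were labelled arcuate neurons, the neurons of the hypothalamic arcuate nucleus. They had been treated with sonic hedgehog (SHH), with purmorphamine, an agonist of the SHH pathway, and with SB431542 and LDN-193189, which block activin and BMP receptors. Later they received B-27 and the Notch pathway inhibitor DAPT, were replated with a ROCK inhibitor, and were kept in B-27 and BDNF. Day 0 cells were H9 cells that had not been differentiated. All libraries came from 1 cell line, and the labels do not say whether replicates were separate cultures, so p-values measure only the spread between these samples, which may be technical.

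SOX proteins bind DNA through an HMG box, PAX proteins through a paired domain, POU proteins through a POU-specific domain joined to a homeodomain, ZIC proteins through zinc fingers, and IRX, OTX and EMX proteins through homeodomains. In the embryo these families divide the neural tube into regions along its length and from back to belly, and some of their members mark neural crest, placodes, endoderm, muscle or blood instead. Within a family, close relatives often bind the same short motif, so the set of relatives that a cell uses is itself a description of the cell.

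Total counts were 5013643 to 12924842 in day 30 libraries and 7178453 to 8794008 in day 0 libraries. Levels are given as CPM, counts scaled to a library total of 1e+06, with the SD of 3 libraries. Marker lists moved in the direction the labels give: 14 of 14 tested pan-neuronal genes were higher on day 30, with summed levels of 7790 to 9410 CPM on day 30 and 238 to 257 CPM on day 0. All 12 pluripotency genes were lower, with 65.1 to 69.3 CPM on day 30 and 6170 to 6580 CPM on day 0. Of 16 arcuate and tuberal genes 9 were tested and 8 were higher, led by POMC, and the list summed to 1860 to 2520 CPM on day 30 and 3.9 to 6.57 CPM on day 0. HMX2 of that list had no reads on day 30, and NPY and AGRP were below 1 CPM in every library. Marker genes other than the most abundant of a list were picked for naming after their values were seen. Day 30 replicate 3 stood apart for a few rarely read genes. Of 22583 entries with 10 or more counts on day 30, it held over 50% of the counts of 164, against 18.1% of all day 30 counts. For results that rest on it, fitted values or counts without it are given beside them. In bulk RNA, fewer cells that use a gene and less of its RNA per cell cannot be told apart.

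Calls in both directions were found among SOX, POU and IRX genes, while the tested PAX gene was higher on day 30 and the tested ZIC, OTX and EMX genes were lower. Of the 55 members, 30 had enough counts to be tested, and by edgeR's quasi-likelihood test with an adjusted p under 0.05 over all 18040 genes tested, 12 were higher on day 30 and 15 were lower. The same test called 76.6% of all genes tested, 39.8% higher and 36.8% lower. For 27 of the 30 members, and for 79.4% of all genes tested, every library of one day lay above every library of the other. The share of members called, 90%, stood on genes that passed a filter on low counts, which a gene read on 1 day alone passes through that day. The median log2 change, day 30 over day 0, was −0.66 for the 30 members, also with EMX1, which had no reads on day 30, set to its bound, and 0.08 for all genes tested. Without day 30 replicate 3, 32 members were tested, 13 higher and 17 lower. Of all 18849 genes tested without that library, 7293 were higher and 6697 lower. Changes of 4-fold or more were fitted for 8 of the higher members and 10 of the lower ones. The share of all genes tested with changes of that size was not counted, so these numbers do not set the members apart.

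**Figure D1:**
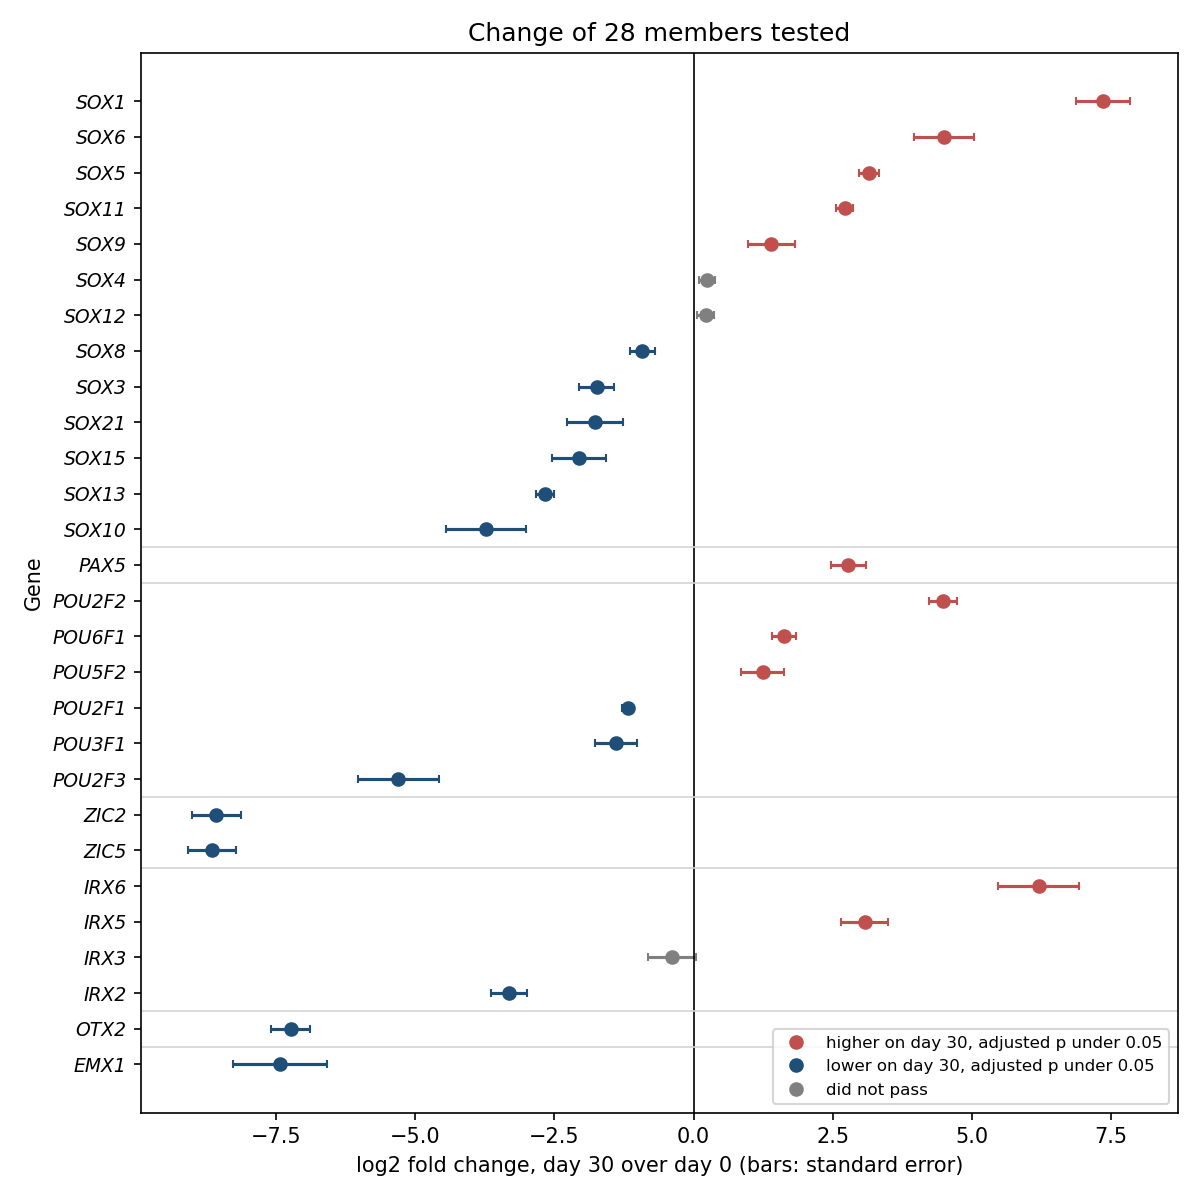
Log2 fold change of 28 of the 30 members tested, day 30 over day 0, on the horizontal axis, with genes grouped by family down the page. Points are estimates of edgeR, bars their standard error, and colours show the call at an adjusted p of 0.05. ZIC2 and ZIC5 lie at −8.57 and −8.65, whereas SOX and POU genes lie on both sides of 0. The value of EMX1, which had no reads on day 30, depends on the prior count of the fit.

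SOX11 and SOX4 had the highest levels of the module on day 30. SoxC proteins (SOX4, SOX11 and SOX12) are activators found in newly formed neurons of many regions. SOX11 (ENSG00000176887.7, chromosome 2, 5692667 to 5701385, plus strand, hg38, a single exon) had 686, 624 and 522 CPM on day 30, against 99.8, 77.0 and 86.5 CPM on day 0. Every day 30 library was above every day 0 library, and the log2 change was 2.71 ± 0.15 (SE, edgeR adjusted p = 4.33e-08). SOX4 (ENSG00000124766.7, chromosome 6, 21592768 to 21598619, plus strand) had 431, 435 and 327 CPM on day 30, against 313, 329 and 307 CPM on day 0. Its groups overlapped, as day 30 replicate 3 lay just below the highest day 0 library, and it did not pass the test (log2 value 0.24 ± 0.14, edgeR adjusted p = 0.134). Without day 30 replicate 3 its log2 change was 0.40 (edgeR adjusted p = 0.00588), and with total counts as the only scaling it was 0.33 (edgeR adjusted p = 0.0289). SOX12 had 36.5, 38.6 and 32.7 CPM on day 30, against 36.5, 26.4 and 24.9 CPM on day 0, ranges that overlapped (log2 value 0.22 ± 0.15, edgeR adjusted p = 0.205).

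To compare levels between genes, CPM was divided by the summed length of a gene's annotated exons. On this length-scaled level, SOX11 had 70.0 ± 9.54 CPM per kb on day 30 and SOX4 67.9 ± 10.5, which did not differ beyond their spread (SD, n = 3 libraries). That rests on GENCODE exon lengths of 8.719 kb for SOX11 and 5.852 kb for SOX4. Transcripts of other lengths would shift the levels, ratios, shares and order given here. Before division by length, day 30 means were 610 ± 82.8 CPM for SOX11 and 397 ± 61.3 CPM for SOX4. On day 0 SOX11 had 10.1 ± 1.28 and SOX4 54.1 ± 1.91 CPM per kb. Within a library, the ratio of SOX11 to SOX4 was 0.963 to 1.07 on day 30 and 0.157 to 0.214 on day 0. Together both genes held 68.8% to 73.2% of the summed length-scaled level of the 55 members on day 30, and 31.9% to 38.8% on day 0. The sum over all 55 members was 168 to 208 CPM per kb on day 30 and 168 to 204 CPM per kb on day 0, ranges that lay over each other. After the SoxC pair, the order on day 30 was POU2F2 (11.8 CPM per kb), SOX12 (7.76), SOX1 (5.96), POU2F1 (5.88) and SOX5 (4.05), and the libraries of SOX1 and POU2F1 overlapped. On day 0 the next levels described after SOX4 were those of ZIC2 (13.5 CPM per kb), OTX2 (13.2), POU2F1 (12.6) and SOX11 (10.1), and the libraries of ZIC2, OTX2 and POU2F1 overlapped. The day 0 libraries of SOX11 overlapped those of ZIC2 and OTX2, and lay below those of POU2F1.

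**Figure D2:**
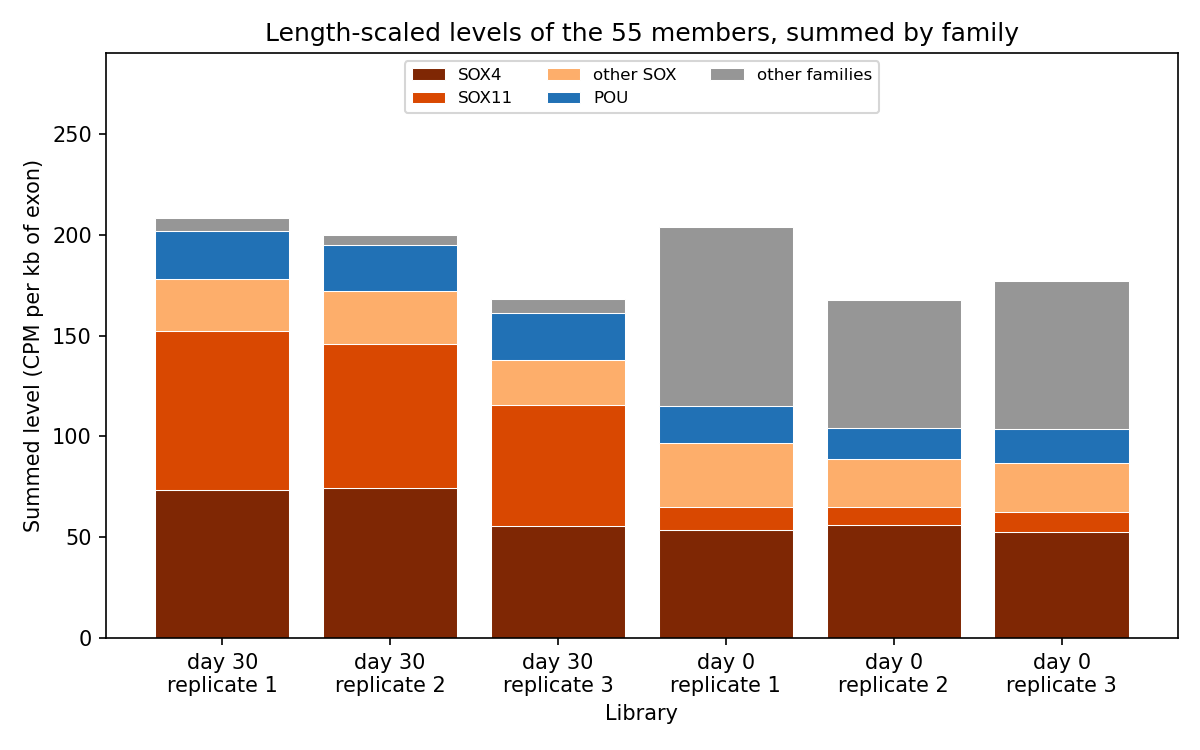
Summed length-scaled level (CPM per kb of exon, vertical axis) of the 55 members in each library, with day 30 libraries on the left and day 0 libraries on the right. Bars are stacked by family, with SOX4 and SOX11 drawn apart from the other SOX genes, and with families other than SOX and POU drawn together. SOX genes held 82.1% to 86.1% on day 30 and 47.5% to 52.9% on day 0.

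The stretch of DNA around the start of SOX4 is shown because SOX4 was the most abundant member on day 0 and near the top on day 30. Promoter windows here are 300 bases, 250 before to 50 after the start that RefSeq gives (GRCh38.p14). RefSeq windows were found for 39 of the 55 members. Each was searched on both strands for the octamer bound by POU proteins (ATGCAAAT), a SOX motif (ACAATG), an OTX motif (TAATCC), the GC box (GGGCGG), the CCAAT box (CCAAT) and the TATA box (TATAAA). Capitals in every printed window mark matches to any of these motifs, and no match to one overlapped a match to another. A match is a description of the letters and not a site. The window of SOX4 (chr6:21593501-21593800, plus strand) holds 4 CCAAT boxes and none of the other motifs. It lies wholly within the only exon that GENCODE annotates for SOX4, after the start that GENCODE gives.
SOX4: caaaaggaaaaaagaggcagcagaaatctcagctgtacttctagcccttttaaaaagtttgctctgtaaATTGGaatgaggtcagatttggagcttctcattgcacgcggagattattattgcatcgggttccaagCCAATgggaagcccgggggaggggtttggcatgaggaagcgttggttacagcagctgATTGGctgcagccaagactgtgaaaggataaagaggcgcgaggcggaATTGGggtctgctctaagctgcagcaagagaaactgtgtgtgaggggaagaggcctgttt

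The SoxB genes moved in opposite directions. SoxB1 proteins (SOX1 and SOX3, with SOX2) keep neural progenitors from differentiating, and the SoxB2 protein SOX21 opposes them. SOX1 (ENSG00000182968.5, chromosome 13, 112067647 to 112070488, plus strand, a single exon) had 17.6, 19.0 and 14.2 CPM on day 30, against 0, 0 and 0.227 CPM on day 0. It was thus read in all day 30 libraries and hardly on day 0, with 488 counts on day 30 against 2 on day 0. The ratio was 210, with a 95% counting interval of 57.7 to 1740 (edgeR adjusted p = 1.89e-07). The fit gave a log2 change of 7.35, and 10.16 when day 0 replicate 3, which held both counts, was left out. Day 0 then had no reads, so that last value depends on the prior count of the fit. SOX3 (ENSG00000134595.9, chromosome X, 140502985 to 140505116, minus strand) had 5.88, 4.41 and 1.99 CPM on day 30, against 16.1, 10.2 and 14.6 CPM on day 0, without overlap (log2 change −1.74 ± 0.32, edgeR adjusted p = 0.000472). SOX21 had 1.03, 0.928 and 0.798 CPM on day 30, against 5.54, 1.39 and 2.27 CPM on day 0. It passed with a log2 change of −1.77 ± 0.50 (edgeR adjusted p = 0.00743), which shrank to −1.14 without day 0 replicate 1. Of the 7 tested progenitor and radial glia markers, none was higher on day 30 and 5 were lower. That list summed to 896 to 1120 CPM on day 30 and 1400 to 2180 CPM on day 0, led by VIM and NES, and HES5 had no reads in any library. The window of SOX1 (chr13:112066899-112067198, plus strand) is shown as that of the SOX gene with the largest fitted rise. It holds 37 CG pairs and 1 GC box, against a median of 14 CG pairs over the 27305 RefSeq windows.
SOX1: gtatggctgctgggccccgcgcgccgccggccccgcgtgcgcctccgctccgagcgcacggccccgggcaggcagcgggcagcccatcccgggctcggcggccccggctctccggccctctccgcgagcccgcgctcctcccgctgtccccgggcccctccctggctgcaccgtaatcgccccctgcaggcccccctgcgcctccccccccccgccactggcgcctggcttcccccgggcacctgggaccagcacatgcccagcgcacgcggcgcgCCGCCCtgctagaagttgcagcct

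Of the SoxD genes, SOX5 and SOX6 rose and SOX13 fell. SoxD proteins (SOX5, SOX6 and SOX13) have no activation domain of their own and act with partners. SOX5 works in subtypes of neurons, and with SOX6 and SOX9 in cartilage. SOX5 (ENSG00000134532.19, chromosome 12, 23529500 to 24562544, minus strand) had 43.5, 46.0 and 37.3 CPM on day 30, against 5.80, 4.04 and 3.64 CPM on day 0, far apart (log2 change 3.15 ± 0.19, edgeR adjusted p = 7.16e-08). SOX6 (ENSG00000110693.19, chromosome 11, 15966449 to 16739591, minus strand) had 4.85, 5.88 and 8.98 CPM on day 30, against 0.387, 0 and 0.341 CPM on day 0 (log2 change 4.50 ± 0.53, edgeR adjusted p = 1.78e-05). SOX13 (ENSG00000143842.15, chromosome 1, 204073115 to 204127743, plus strand) went the other way, with 10.3, 8.12 and 11.6 CPM on day 30, against 69.0, 58.8 and 48.7 CPM on day 0 (log2 change −2.67 ± 0.17, edgeR adjusted p = 1.14e-07). The length-scaled ratio of SOX5 to SOX13 within a library was 2.29 to 4.03 on day 30 and 0.0488 to 0.0598 on day 0, so the more abundant of both genes differed between the days in every library. SOX5 is shown as the only member whose RefSeq window (chr12:24562442-24562741, minus strand) holds the SOX motif, with 2 matches beside 1 GC box. The motif is found in 11% of all RefSeq windows, and in 2.56% of the members' windows.
SOX5: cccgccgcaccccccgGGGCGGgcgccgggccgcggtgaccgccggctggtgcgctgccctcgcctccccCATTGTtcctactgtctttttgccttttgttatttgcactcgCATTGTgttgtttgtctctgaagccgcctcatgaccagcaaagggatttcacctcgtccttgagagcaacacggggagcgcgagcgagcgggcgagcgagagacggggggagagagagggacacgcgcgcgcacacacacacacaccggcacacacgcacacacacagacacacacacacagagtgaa

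SoxE genes were low on both days. SOX9, a factor of cartilage and of astrocyte precursors, had 2.99, 5.88 and 6.38 CPM on day 30, against 2.96, 1.39 and 1.02 CPM on day 0. The lowest day 30 library was barely above the highest day 0 library, and the log2 change was 1.40 ± 0.42 (edgeR adjusted p = 0.00993). SOX8 fell to 4.32 ± 0.61 CPM on day 30, against 7.59 ± 0.79 CPM on day 0 (SD, log2 change −0.92 ± 0.23, edgeR adjusted p = 0.00345). SOX10, which marks neural crest and the oligodendrocyte lineage, held 3 counts on day 30 against 37 on day 0. Day 0 over day 30 the ratio was 14.4, with a 95% counting interval of 4.55 to 72.8 (edgeR adjusted p = 0.000649). The fit gave a log2 change of −3.73, and −4.81 when day 30 replicate 3, which held 2 of the 3 counts, was left out. For some of the other single libraries left out, SOX10 had no refitted value, so its call was not tested there. SOX10 shares 2.4% of its exon bases with POLR2F on the other strand, and how the counting treated strand is not known here.

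Lists of the lineages that SoxE genes mark were read beside them. Of 5 tested cartilage genes 4 were higher on day 30 and 1 was lower. The list summed to 104, 99.6 and 148 CPM on day 30 and 20.1 to 39.4 CPM on day 0, led by COL9A2, and COL11A2 had no reads. The highest sum was that of day 30 replicate 3, where HAPLN1 had 52.3 CPM, against 3.1 and 15.6 CPM in replicates 1 and 2. Of 2 tested astrocyte genes both were lower, and the list summed to 33.8 to 158 CPM on day 30 and 673 to 1080 CPM on day 0. GJA1 made up nearly all of that sum, while GFAP stayed at 1.67 CPM or less in every library. Neural crest and melanocyte genes had 3 of 6 tested lower and none higher, with 10.6 to 18.1 CPM on day 30 and 102 to 120 CPM on day 0, and FOXD3 and TYR had no reads on day 30. Among 7 tested genes of the oligodendrocyte lineage 2 were higher and 2 lower, with 103 to 130 CPM on day 30 and 172 to 240 CPM on day 0, and MOG had no reads. The part of any such cell type in the SoxE values was not tested.

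The other SOX genes were rarely read. SOX15, the SoxG gene, had 0.64 ± 0.29 CPM on day 30 and 2.34 ± 0.81 CPM on day 0 (log2 change −2.05 ± 0.49, edgeR adjusted p = 0.00266). It lies within MPDU1, which is on the other strand and had 21.4 CPM on day 30 and 31.1 CPM on day 0. SoxF genes, which act in endothelium and endoderm, were not tested: SOX17 had no reads, SOX18 had at most 3 counts and SOX7 at most 6.5 in a library. SOX7 shares 39.4% of its exon bases with PINX1 on the same strand. Of 7 endothelial markers 3 were tested and all 3 were lower, with 4.08 to 7.38 CPM on day 30 and 197 to 251 CPM on day 0. Both tested endoderm markers were lower, with 0.722 to 1.99 CPM on day 30 and 23.5 to 54.5 CPM on day 0, and GATA4 and HNF4A had no reads on day 30. SOX30, a factor of male germ cells, had at most 2 counts in a library.

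Of the POU class 2 genes, POU2F2 rose and POU2F1 and POU2F3 fell. These proteins bind the octamer, and include OCT1 (POU2F1), found in most cells, and OCT2 (POU2F2), known from B lymphocytes and neurons. POU2F2 (ENSG00000028277.22, chromosome 19, 42086110 to 42196585, minus strand) had 112, 112 and 96.7 CPM on day 30, against 5.16, 2.23 and 5.91 CPM on day 0. All day 30 libraries were far above all day 0 libraries, with a log2 change of 4.48 ± 0.25 (edgeR adjusted p = 4.97e-08). POU2F1 (ENSG00000143190.23, chromosome 1, 167220829 to 167427345, plus strand) had 98.5, 91.4 and 93.9 CPM on day 30, against 220, 195 and 191 CPM on day 0 (log2 change −1.18 ± 0.10, edgeR adjusted p = 1.56e-06). The ratio of their length-scaled levels, POU2F2 over POU2F1, was 1.82 to 2.17 on day 30 and 0.0202 to 0.0548 on day 0. POU2F3, a factor of epidermis and tuft cells, held 3 counts on day 30 against 110 on day 0. Day 0 over day 30 the ratio was 42.7, with a 95% counting interval of 14.2 to 210 (edgeR adjusted p = 5.69e-05). All 3 counts were in day 30 replicate 1. The fitted log2 change of −5.30 was −4.48 without day 30 replicate 2, and −8.31 without replicate 1, when day 30 had no reads and the value depends on the prior count. The window of POU2F2 (chr19:42132397-42132696, minus strand) is shown as that of the POU gene with the largest rise, and holds 3 GC boxes and no octamer. RefSeq's start lies within the gene as annotated by GENCODE, which has other starts.
POU2F2: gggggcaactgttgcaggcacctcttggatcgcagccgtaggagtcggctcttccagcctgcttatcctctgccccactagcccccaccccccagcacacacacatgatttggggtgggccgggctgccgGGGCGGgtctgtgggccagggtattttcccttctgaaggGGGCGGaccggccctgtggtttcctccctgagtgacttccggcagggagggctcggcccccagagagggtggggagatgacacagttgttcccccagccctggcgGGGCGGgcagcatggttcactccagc

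**Figure D3:**
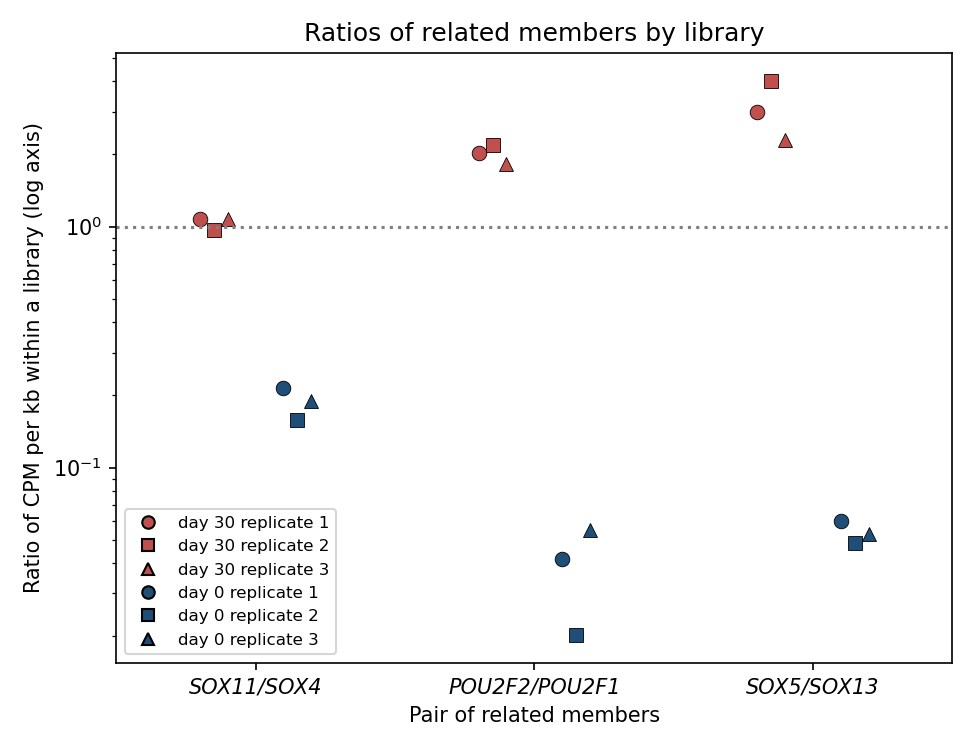
Ratio of the length-scaled levels (CPM per kb, log axis) of 3 pairs of related members, with 1 point for each library, day 30 on the left and day 0 on the right of each pair. The ratio of POU2F2 to POU2F1 and that of SOX5 to SOX13 lie above 1 in all day 30 libraries and below 1 in all day 0 libraries, whereas SOX11 to SOX4 lies near 1 on day 30. The pairs were chosen after their values were seen.

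The class 6 gene POU6F1 rose. POU6F1 (ENSG00000184271.18, chromosome 12, 51186936 to 51217708, minus strand), known from brain, had 17.0, 13.0 and 17.4 CPM on day 30, against 5.80, 4.18 and 4.32 CPM on day 0. The groups were clearly apart, with a log2 change of 1.63 ± 0.21 (edgeR adjusted p = 3.58e-05). POU5F2 had 7.84, 7.54 and 13.1 CPM on day 30, against 6.44, 2.79 and 1.93 CPM on day 0, and the fit gave 1.24 ± 0.39 on the log2 scale (edgeR adjusted p = 0.0126). Leaving out day 0 replicate 2 ended that call (edgeR adjusted p = 0.0519). POU5F2 lies within FAM172A on the same strand, and FAM172A had 43.0 ± 0.22 CPM on day 30 and 14.4 ± 1.30 CPM on day 0 (log2 change 1.49), so reads of both genes may be mixed and the value of POU5F2 is uncertain.

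Class 3 and class 4 POU genes, which are used in many neurons, were near the limit of detection. POU3F1 had 1.28 ± 0.39 CPM on day 30 and 3.22 ± 1.03 CPM on day 0 (log2 change −1.39 ± 0.38, edgeR adjusted p = 0.00607). POU3F2 (BRN2), POU3F3 (BRN1) and POU3F4 (BRN4) were not tested, with at most 6, 3.5 and 5 counts in a library. POU4F1 (BRN3A), which marks sensory neurons, had 7, 16 and 6 counts on day 30, against 2, 3 and 0 counts on day 0. It was not tested after the filter, and passed as higher when no filter was used (edgeR adjusted p = 0.0115). Of its exon bases, 27.7% are shared with an antisense gene that held almost no reads. POU4F2 and POU4F3 had at most 3 and 2 counts in a library. Of 9 sensory neuron markers 2 were tested and both were higher, with summed levels of 17.2 to 33.2 CPM on day 30 and 3.9 to 6.03 CPM on day 0, led by RUNX1, and were highest in day 30 replicate 3, while NEUROG1 had no reads on day 30. POU1F1, the pituitary factor, had no reads in any library, and none of the 5 anterior pituitary markers was tested, their sum being at most 0.0997 CPM in any library.

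ZIC2 and ZIC5 had the largest fitted falls of the module. ZIC proteins pattern the dorsal neural tube and the midline. ZIC2 (ENSG00000043355.12, chromosome 13, 99981772 to 99986773, plus strand) had 0, 0.0774 and 0.399 CPM on day 30, against 61.0, 38.0 and 35.4 CPM on day 0. ZIC5 (ENSG00000139800.9, chromosome 13, 99962964 to 99971909, minus strand) had 0, 0 and 0.399 CPM on day 30, against 34.7, 33.3 and 32.0 CPM on day 0. Both were thus read in every day 0 library and hardly on day 30, and what was read on day 30 lay mainly in replicate 3.

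The fitted log2 changes were −8.57 ± 0.44 for ZIC2 (edgeR adjusted p = 2.58e-08) and −8.65 ± 0.43 for ZIC5 (edgeR adjusted p = 1.89e-08). ZIC2 held 3 counts on day 30 against 1057 on day 0, and the ratio of day 0 to day 30 was 410, with a 95% counting interval of 140 to 1990. ZIC5 held 2 counts on day 30 against 789 on day 0, and its ratio was 459, with a 95% counting interval of 127 to 3800. Without day 30 replicate 3, ZIC5 had no reads on day 30. Against a floor of 3 counts over the group it was then at least 251-fold lower, and ZIC2, with 1 count left, had a fitted log2 change of −9.64. Without day 30 replicate 2 the fitted value of ZIC5 was −7.83.

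The rarely read ZIC1 and ZIC4 showed the same library on day 30. ZIC1 had 0, 0 and 9 counts on day 30 and 3 counts over the day 0 libraries, and ZIC4 had 0, 0 and 2 counts on day 30 and none on day 0, so neither was tested. In all, day 30 replicate 3 held over 50% of the day 30 counts of 10 of the 49 members read on day 30, among them ZIC1, ZIC2, ZIC4, ZIC5, PAX8, PAX9, POU3F3, POU3F4 and SOX10. Of 28 members with 10 or more counts on day 30, it did so for 2, PAX8 among them, against 0.726% of all entries with such counts. The rest of the 10 had fewer than 10 counts on day 30, where a few reads decide the share. For all entries with any day 30 count that share was not computed, so 10 of 49 does not set the members apart. The same library had 12.9 CPM of PDGFRA and 52.3 CPM of HAPLN1, against at most 0.774 CPM of PDGFRA and 15.6 CPM of HAPLN1 in the other day 30 libraries. Both genes were chosen after their values were seen, and their part in the ZIC counts was not tested. Dorsal midline and roof plate markers had 2 of 8 tested, 1 higher and 1 lower, and summed to 5.26 to 10.6 CPM on day 30 and 8.5 to 11.5 CPM on day 0, with WNT1 and WNT3A at 0 on day 30.

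ZIC2 and ZIC5 are neighbours that point away from each other, with 9.86 kb between the genes, and their windows are shown because the pair fell together. The window of ZIC2 (chr13:99981534-99981833, plus strand) holds 4 GC boxes and 35 CG pairs. That of ZIC5 (chr13:99971860-99972159, minus strand) holds 1 CCAAT box, no GC box and 33 CG pairs. The median over the members' windows was 21 CG pairs. A GC box was found in 25 of the 39 members' windows (64.1%) and in 44.6% of all RefSeq windows, and a CCAAT box in 22 (56.4%) and in 35.7%.
ZIC2: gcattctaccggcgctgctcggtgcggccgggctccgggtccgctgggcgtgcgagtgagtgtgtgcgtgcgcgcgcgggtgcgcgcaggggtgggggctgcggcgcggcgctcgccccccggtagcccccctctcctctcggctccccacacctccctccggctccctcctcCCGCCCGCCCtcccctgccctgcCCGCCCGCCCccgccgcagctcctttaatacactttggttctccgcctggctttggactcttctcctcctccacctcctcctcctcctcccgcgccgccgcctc
ZIC5: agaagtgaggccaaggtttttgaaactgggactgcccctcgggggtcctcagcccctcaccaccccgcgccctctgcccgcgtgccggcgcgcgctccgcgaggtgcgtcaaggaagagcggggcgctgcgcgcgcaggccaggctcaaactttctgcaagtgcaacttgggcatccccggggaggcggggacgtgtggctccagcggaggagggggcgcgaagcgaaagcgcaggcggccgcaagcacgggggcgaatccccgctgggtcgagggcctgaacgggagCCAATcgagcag

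**Figure D4:**
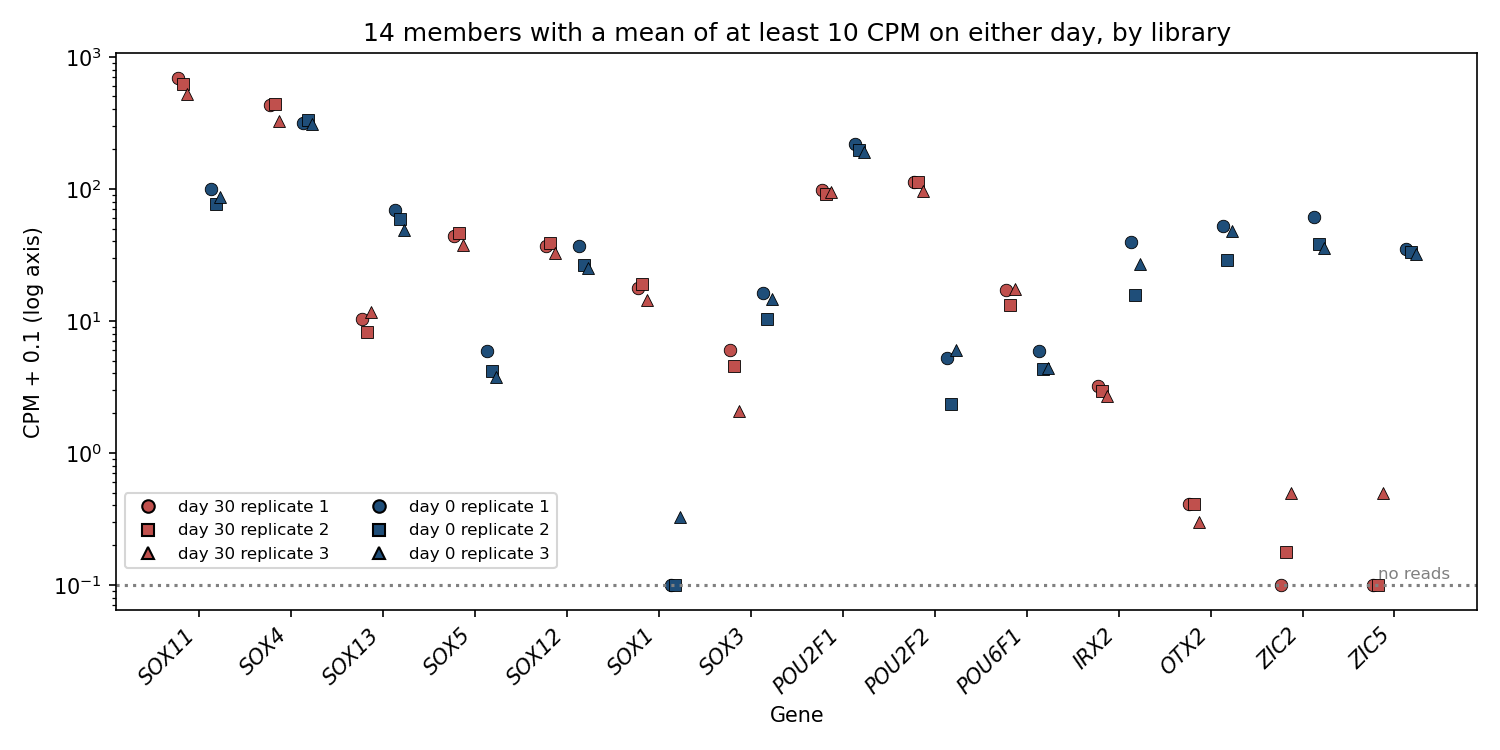
CPM plus 0.1 (log axis) of 14 of the 15 members with a mean of at least 10 CPM on either day, with 1 point for each library, day 30 on the left and day 0 on the right of each gene. Points on the dotted line had no reads. ZIC2 and ZIC5 were read on day 30 mainly in replicate 3, and SOX1 was read on day 0 in replicate 3 alone.

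OTX2 and EMX1 were also lower on day 30. OTX2, which is needed for forebrain and midbrain and is active in pluripotent cells primed to differentiate, lies on chromosome 14 (ENSG00000165588.19, 56799905 to 56810479, minus strand). It had 0.31, 0.309 and 0.199 CPM on day 30, against 52.1, 29 and 48.1 CPM on day 0. All 3 day 30 libraries held few reads and all 3 day 0 libraries many, with 8 counts on day 30 and 1035 on day 0 (log2 change −7.23 ± 0.35, edgeR adjusted p = 1.76e-08). OTX1 had 5 counts on day 30 and 36 on day 0 and was not tested. With no filter on low counts it passed as lower (edgeR adjusted p = 3.92e-05). The window of OTX2 (chr14:56810430-56810729, minus strand) is shown as that of another gene that fell to near 0. It holds 1 CCAAT box and 9 CG pairs, fewer than those of ZIC2 and ZIC5.
OTX2: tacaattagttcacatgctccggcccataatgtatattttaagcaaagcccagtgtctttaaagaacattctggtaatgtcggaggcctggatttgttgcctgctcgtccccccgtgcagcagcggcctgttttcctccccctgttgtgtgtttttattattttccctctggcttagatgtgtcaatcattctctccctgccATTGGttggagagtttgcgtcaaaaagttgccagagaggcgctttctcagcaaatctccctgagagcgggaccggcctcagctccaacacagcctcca

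EMX1, a factor of the dorsal telencephalon, had no reads on day 30 and 57 counts on day 0. It was at least 22.1-fold lower on day 30 against a floor of 3 counts over the group (edgeR adjusted p = 4.36e-05). EMX2 had at most 1 count in a library. Of 11 telencephalic and ventral forebrain markers 3 were tested, 2 higher and 1 lower, with sums of 16.2 to 18.2 CPM on day 30 and 2.79 to 3.75 CPM on day 0. DLX1 averaged 6.13 CPM in day 30 libraries against 0.0379 CPM in day 0 libraries. NEUROD6 had no reads in any library. Retina and photoreceptor markers, another domain of OTX2, summed to 1.75 to 6.18 CPM on day 30 and 0.682 to 2 CPM on day 0, with 1 of 6 tested, which was higher, and with CRX and RLBP1 at 0 on day 30.

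Of the 4 IRX genes tested, IRX5 and IRX6 rose, IRX2 fell and IRX3 did not pass. The Iroquois homeobox genes stand in a pair of clusters of 3 genes each, IRX1, IRX2 and IRX4 on chromosome 5 and IRX3, IRX5 and IRX6 on chromosome 16, and pattern neural tube, heart and limb. IRX2 (ENSG00000170561.13, chromosome 5, 2745845 to 2751662, minus strand) had 3.10, 2.86 and 2.59 CPM on day 30, against 39.1, 15.6 and 26.8 CPM on day 0. It was lower in every day 30 library (log2 change −3.31 ± 0.32, edgeR adjusted p = 3.51e-06). IRX4 had no reads on day 30 and 35 counts on day 0, at least 13.6-fold lower. It was not tested after the filter and passed as lower with no filter (edgeR adjusted p = 1.31e-08). IRX1 had at most 4 counts in a library and shares 20.6% of its exon bases with an antisense gene that had no reads.

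On chromosome 16, IRX5 (ENSG00000176842.16, 54930862 to 54934485, plus strand) had 6.61, 3.79 and 4.59 CPM on day 30, against 0.644, 0.279 and 0.682 CPM on day 0 (log2 change 3.07 ± 0.42, edgeR adjusted p = 5.75e-05). IRX6 (ENSG00000159387.8, 55323760 to 55330760, plus strand) had 6.19, 3.09 and 3.79 CPM on day 30, against 0, 0.139 and 0 CPM on day 0. Both were read in all day 30 libraries above any day 0 library. IRX6 held 119 counts on day 30 against 1 on day 0, and the ratio was 102, with a 95% counting interval of 18 to 4070 (edgeR adjusted p = 1.88e-05). The fit gave a log2 change of 6.19, and 8.24 when day 0 replicate 2, which held that count, was left out. Day 0 then had no reads, and the value depends on the prior count. IRX3 had 0.722, 1.01 and 1.4 CPM on day 30, against 1.68, 1.39 and 0.682 CPM on day 0, with overlap (log2 value −0.39 ± 0.43, edgeR adjusted p = 0.423). IRX5 and IRX6 lie 389 kb apart and IRX3 lies 644 kb from IRX5. Within the chromosome 5 cluster, IRX2 and IRX4 lie 859 kb apart. None of 13 midbrain, hindbrain and spinal cord markers was tested. They summed to 0.103 to 2.39 CPM on day 30, highest in replicate 3, and to 0.455 to 1.29 CPM on day 0, and 7 of them, all HOX genes, had no reads on day 30.

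Among the 9 PAX genes only PAX5 passed the filter and was tested. PAX5, a factor of B lymphocytes and of the midbrain-hindbrain boundary, lies on chromosome 9 (ENSG00000196092.14, 36833275 to 37034185, minus strand). It had 7.84, 8.43 and 5.78 CPM on day 30, against 1.03, 1.25 and 0.796 CPM on day 0. All day 30 libraries were above all day 0 libraries, with a log2 change of 2.78 ± 0.31 (edgeR adjusted p = 1.26e-05). Of 4 B lymphocyte markers, CD79A, CD79B and MS4A1 among them, none was tested, and their sum was 0.309 to 0.619 CPM on day 30 and 0.836 to 1.42 CPM on day 0. The boundary genes EN1 and EN2 had at most 0.199 CPM in any library.

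PAX6, which marks eye, dorsal forebrain and neural progenitors, was hardly read. It had 0, 3 and 0 counts on day 30, against 14, 3 and 9 counts on day 0, and the ratio of day 0 to day 30 was 10.1, with a 95% counting interval of 3.09 to 52.1. It passed as lower with no filter on low counts (edgeR adjusted p = 0.000285). PAX6 shares 26.1% of its annotated exon bases with genes on the other strand, mainly ELP4, which had 16.5 CPM on day 30 and 28.9 CPM on day 0. PAX8, a factor of thyroid, kidney and the midbrain-hindbrain boundary, had 1, 3 and 17 counts on day 30, against 1, 0 and 2 counts on day 0, and passed as higher with no filter (edgeR adjusted p = 0.00861). Day 30 replicate 3 held 81% of its day 30 counts. Without that library 1 and 3 counts remained on day 30, against 1, 0 and 2 on day 0, and the unfiltered fit was not repeated without it. PAX9, PAX1, PAX2, PAX3 and PAX7 had at most 4 counts in a library, and PAX4 had none in any.

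Marker lists of tissues in which PAX genes act were read beside them. Of 5 skeletal muscle markers, a fate of cells with PAX3 and PAX7, 2 were tested and neither passed. They summed to 2.79 to 3.19 CPM on day 30 and 3.07 to 4.67 CPM on day 0, and MYOD1, MYF5 and MYOG had no reads. Of 8 thyroid, kidney and pancreas markers 1 was tested and was higher, TG, with means of 4.05 CPM on day 30 against 0.0894 CPM before differentiation. The list summed to 4.03 to 5.78 CPM on day 30 and 0.557 to 0.902 CPM on day 0. UMOD, PDX1 and GCG had no reads on day 30. Floor plate and ventral neural tube markers had 3 of 7 tested and all 3 higher, with 12.2 to 19.5 CPM on day 30 and 0.838 to 0.975 CPM on day 0, led by NKX2-2 and CORIN. FOXA1 and NKX6-2 of that list had no reads on day 30.

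Of the 25 members not tested, 3 (PAX4, POU1F1 and SOX17) had no reads in any library, and the highest count of any of them in a library was 20, of OTX1 on day 0. A count of 0 over a group allows up to 0.109 CPM on day 30 and 0.126 CPM on day 0, from 3 counts. Such limits and the counting intervals hold only the error of counting, since reads without molecular identifiers are not independent molecules. Without a filter on low counts 52 members were fitted, and 5 more passed, IRX4, OTX1 and PAX6 as lower and PAX8 and POU4F1 as higher. Of all 37507 genes fitted that way, 9147 passed as higher and 7692 as lower. Exon bases shared with another gene were annotated for 21 of the 55 members, the largest share being 39.4%, in SOX7. The octamer was found in the windows of SOX12 and POU5F2, 5.13% of members' windows and 1.8% of all, and the OTX motif in those of PAX7 and POU1F1, 5.13% and 6.39%. A TATA box was found in 10.3% of members' windows and in 12% of all.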

How the data were processed

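RNA of cultured cells was sequenced, after removal of ribosomal RNA, from stranded TruSeq libraries, per the labels' protocols. Per the submitters' processing notes, the build was hg38 and FastQC 0.11.9 was used. For aligner, counting program and strand setting, nothing is given in the sources used here. What the authors deposited are expected counts per Ensembl gene, of which 92.6% were exactly whole (83.7% of those above 0) and the others held fractions. The tests were planned for counts, so fractions were rounded first. Columns of values not used numbered 0. Gene type, position and exon length were found for 94.3% of entries in GENCODE release 29.

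All 6 libraries entered 1 fit across 18040 genes in R 4.3.3 with edgeR 4.0.16 (filterByExpr, TMM, quasi-likelihood test, Benjamini-Hochberg, 2-sided). A trial of the code on simulated counts changed only a small part of the genes, unlike these data. It does not show how the fit performs here. The standard error is the absolute log2 change divided by the square root of F. CPM and length-scaled levels use total counts. Alternatives were other scalings, filters, rounding, DESeq2 1.42.0, a replicate block and each library left out. The rule was to name every member tested with its values, those of 10 CPM or more on either day in every library. Some members and marker genes count in the totals and are not reported here by name. The members and lists were chosen with earlier results of these data known.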

Additional observations from a re-analysis of the deposited data

How the results depend on the processing

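Under the alternatives run, 384 of 387 refitted member values kept their direction and their side of the threshold, and none changed direction. The exceptions were SOX4, which passed with total counts only and without day 30 replicate 3, and POU5F2, which did not pass without day 0 replicate 2. SOX10 had no refitted value when replicate 3 of day 0 was dropped, nor when either of the day 30 libraries 1 and 2 was. Its call was therefore not tested in those fits. Of the members, 12 to 13 were higher and 14 to 17 lower with 1 library left out. With no filter on low counts 14 of 52 members were higher and 18 lower, and of all 37507 genes fitted 9147 were higher and 7692 lower. Over all genes tested, 18404 to 19189 in those fits, 6783 to 7441 were higher and 6352 to 6718 lower with 1 library left out. Replicates with the same number were not paired by the labels. The correlation of their deviations from the group means was −0.0493 to 0.0749 over the 3 pairs, and −0.1296 to 0.1344 between different numbers. With 3 libraries a day this cannot show whether samples were paired, which is not known. With the replicate number as a block, 12 members were higher and 15 lower, as without it, and 6921 and 6415 of all genes. Total counts as the only scaling moved the median of all genes by 0.09 on the log2 scale. Depth limits what can be said of the 25 members with too few counts to test.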
